A study of Mus musculus with 21 samples.

Results

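The 5 libraries described here are the fetal brain contact profiles of the mouse globin loci, where these genes are known to be silent. They are 5 of 21 libraries of a study that applied circular chromosome conformation capture with sequencing (4C-seq), which reads out how often the chromatin around 1 chosen fragment, the viewpoint, was ligated to the fragments around it. They were chosen by tissue, locus and enzyme pair rather than by a measured value, although earlier results of these data were known. At the alpha-globin locus on chromosome 11 there were 2 libraries, with the Hba-a1 promoter and HS-26 as viewpoints. At the beta-globin locus on chromosome 7 there were 3, with HS-2, 3' HS-1 and the Hbb-b1 promoter. Per the labels, brains of 10 to 12 C57BL/6 embryos at 14.5 days post coitum (dpc) were pooled, the equivalent of 4 brains was fixed in 2% formaldehyde for 10 minutes, and chromatin was cut with DpnII and then Csp6I. The fetal livers that served for comparison had the same strain, stage, fixation and enzymes, with the equivalent of 2 livers, and 5 liver libraries looked out from the same 5 viewpoints. A further liver library of the Hba-a1 promoter was made with 1/16 of the template. Every combination of viewpoint, tissue and template amount was 1 library from pooled embryos, so no test across samples was possible. The values below are descriptions without a p-value. The tissue label cannot be checked here, because DNA contacts carry no expression markers.

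Red blood cells and their precursors make haemoglobin from alpha and beta chains, whose gene clusters lie on different chromosomes. HS-26, a DNase I hypersensitive site, is the main enhancer of the alpha-globin genes and lies in an intron of the neighbouring gene Nprl3. HS-2 is a part of the locus control region, the strong distal enhancer of the beta-globin genes, and 3' HS-1 and HS-62 are outer sites known to bind the insulator protein CTCF. In erythroid cells, which are abundant in fetal liver, enhancers and promoters of both loci are known to contact each other. In brain the genes are off, and the alpha cluster is known to lie among broadly expressed genes, whereas the beta cluster is known to lie in inactive chromatin. In the order of the RefSeq gene table, the 10 protein-coding genes on either side of the alpha cluster held 0 olfactory receptor genes, with Nprl3, Mpg and Rhbdf1 next to it on the side of lower coordinates. The beta cluster had 10 of 10 on each side, with Olfr67 and Olfr66 as its direct neighbours.

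A promoter from each locus is shown because promoters were among the viewpoints and because the sites of the first enzyme set the fragments that 4C-seq can see. The sequences are the 250 bases before the gene start in RefSeq's GRCm38.p6, a later build than that of the contact files, read on the strand of the gene. Hba-a1 is at chr11:32283422-32283671 on the + strand and Hbb-bs at chr7:103827929-103828178 on the - strand. The promoter table has no entry for Hbb-b1, the name in the labels. Hbb-bs, an adult beta-globin gene of the haplotype that C57BL/6 carries, is shown in its place, and no coordinate was converted between builds.
Hba-a1: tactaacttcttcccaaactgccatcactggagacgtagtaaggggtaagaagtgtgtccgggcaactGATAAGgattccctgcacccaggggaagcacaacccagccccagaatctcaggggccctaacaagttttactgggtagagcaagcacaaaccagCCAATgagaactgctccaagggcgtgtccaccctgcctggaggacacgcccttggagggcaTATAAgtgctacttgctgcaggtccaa
Hbb-bs: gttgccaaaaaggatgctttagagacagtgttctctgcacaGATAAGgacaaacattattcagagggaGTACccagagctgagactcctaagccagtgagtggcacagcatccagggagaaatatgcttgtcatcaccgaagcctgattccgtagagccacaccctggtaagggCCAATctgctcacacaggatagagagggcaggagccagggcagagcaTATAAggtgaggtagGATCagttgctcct
Capitals mark the motifs searched on both strands, which are GATC (the DpnII site), GTAC (the Csp6I site), GATAAG (the core bound by GATA factors), CCAAT and TATAA. None of them overlap in these 2 promoters. Each promoter held GATAAG once, at -182 in Hba-a1 and -209 in Hbb-bs, counted from the gene start. CCAAT stood at -88 and -76, and TATAA at -27 and -29. The Hba-a1 window held no GATC and no GTAC, and the Hbb-bs window held GTAC at -182 and GATC at -14. Of 32851 promoter windows of 300 bases in the table, 48.0% held GATC, 35.8% GTAC, 7.4% GATAAG, 37.4% CCAAT and 24.9% TATAA. GC content over 300 bases was 53.3% in Hba-a1 with 4 CpG and 49.7% in Hbb-bs with 2 CpG, against medians of 52.7% and 7 CpG over the table. The window of Hba-a1 was identical to that of Hba-a2 over 297 of 297 aligned bases, whereas Hbb-bs matched Hbb-bt at 168 of 299. Contacts of the Hba-a1 promoter may therefore include some of Hba-a2 where fragments are identical, which was not tested.

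The deposited signal is given every 1000 bp and was smoothed by the authors with a running window, here of 5 kb. It is relative to the level at the viewpoint, and sequencing depth is unknown. A viewpoint was placed at the median, over its libraries in both tissues, of the position of highest signal. In mm9 coordinates this was 32184894 for the Hba-a1 promoter, 32149250 for HS-26, 110977000 for the Hbb-b1 promoter, 111006000 for HS-2 and 110942500 for 3' HS-1. The brain libraries' own highest positions lay 0 kb from it for both promoters, 0.25 kb for HS-26, 1 kb for HS-2 and 1.5 kb for 3' HS-1. Comparisons of decay, of the sides and of the spread of residuals run from 10 to 140 kb, the distance covered on both sides in all 5 brain libraries. The expected decay, the named maxima, the correlations of profiles and the shares of empty positions, all described below, use every covered position beyond 10 kb. The 2 alpha viewpoints are 35.644 kb apart, the Hbb-b1 promoter is 29 kb from HS-2 and 34.5 kb from 3' HS-1, and the outer beta viewpoints are 63.5 kb apart. The only technical yardstick in the series is the Hba-a1 promoter in liver, profiled with full and with 1/16 of the template. It is 1 pair at 1 viewpoint in the other tissue, so it says nothing of the spread between animals or at the other viewpoints.

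Signal fell with distance along closely similar curves at both silent loci. From the Hba-a1 promoter in brain the mean signal over both sides was 0.111 at 10 to 20 kb, 0.0658 at 20 to 40 kb, 0.0317 at 40 to 80 kb and 0.0183 at 80 to 140 kb. From HS-26 it was 0.0761, 0.0356, 0.0158 and 0.00615 over the same 4 bands. The Hbb-b1 promoter had 0.0972, 0.0639, 0.0245 and 0.0104, and the other beta viewpoints stayed near these levels. HS-2 had 0.105, 0.0487, 0.0195 and 0.0100, and 3' HS-1 had 0.132, 0.0593, 0.0311 and 0.0168. The nearest band held 6.07 times the signal of the farthest for the Hba-a1 promoter and 12.4 times for HS-26, against 9.30 times from the Hbb-b1 promoter, 10.5 times from HS-2 and 7.87 times from 3' HS-1. All 3 beta ratios lay between the 2 alpha ratios, and both loci had a mean ratio of 9.22. The deposited window spread was wide at each distance. At 10 to 20 kb from the Hba-a1 promoter it ran from a mean lower value of 0.0330 to a mean higher value of 0.341, and from the Hbb-b1 promoter from 0.0309 to 0.252.

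The steepness of the decay was summarised as the slope of log2 signal on log2 distance over 26 bins of 5 kb, so that -1 means that signal falls in inverse proportion to distance. The slope was -0.98 for the Hba-a1 promoter and -1.28 for HS-26, against -1.22 for the Hbb-b1 promoter, -1.19 for HS-2 and -1.02 for 3' HS-1. The loci overlapped completely: their means were -1.13 at alpha and -1.14 at beta, a difference of 0.01, while the 5 libraries spanned 0.30. Bins scattered about the slope by an SD of 0.49 and 0.41 (log2) at the alpha viewpoints and 0.54, 0.44 and 0.31 at the beta viewpoints. Fitted on each side alone, the slope from the Hba-a1 promoter was -0.95 on the side of HS-26 and -1.05 on the other, and the slope from HS-26 was -1.28 on the promoter's side and -1.31 on the other. Sides differed more at 2 beta viewpoints, with -1.40 on the HS-2 side of the Hbb-b1 promoter against -1.18, and -1.05 on the promoter side of HS-2 against -1.38. From 3' HS-1 the slope was -1.10 on the globin side against -0.98, a gap near that of the Hba-a1 promoter. The steeper sides of the Hbb-b1 promoter and HS-2 hold the longest runs of positions without signal, described below. From HS-2 the bins at 67.5 and 107.5 kb on that side had no signal. Side slopes without such positions were not computed.

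The distance reached by most of the signal gave a like picture, with a larger dependence on single libraries. The distance that held 50% of the signal from 10 to 140 kb was 39.6 kb for the Hba-a1 promoter and 33.2 kb for HS-26, against 33.2 kb from the Hbb-b1 promoter, 29.4 kb from HS-2 and 37.4 kb from 3' HS-1. The locus means were 36.4 kb at alpha and 33.4 kb at beta. Their difference of 3.05 kb was close to the 2.90 kb by which the template pair differed, and it was -0.114 kb without the Hba-a1 promoter library and 6.21 kb without the HS-26 library.

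**Figure D1:**
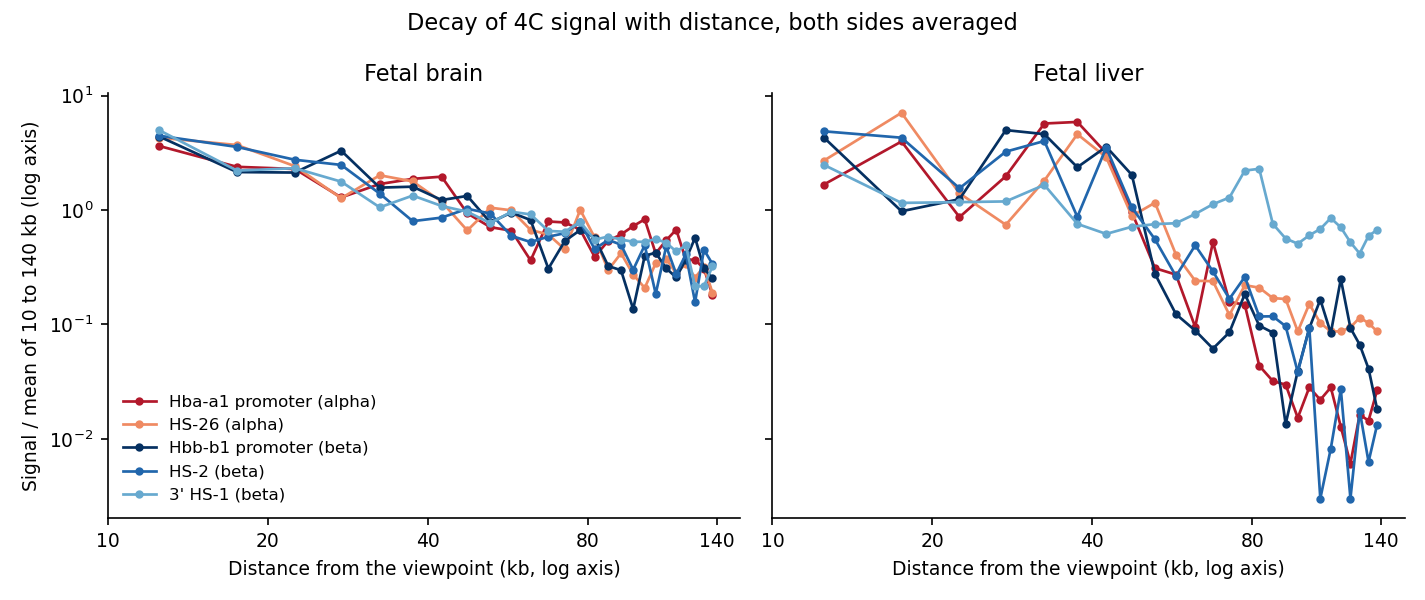
Mean signal over both sides of the viewpoint in bins of 5 kb, divided by the library's mean over 10 to 140 kb, against distance from the viewpoint (both axes logarithmic), in fetal brain (left) and fetal liver (right), 1 library per line, with values under 0.003 drawn at 0.003. The 5 brain curves run together with slopes of -0.98 to -1.28, while the liver curves spread over slopes of -0.41 to -3.13.

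Curves of the same locus were no more alike than curves of different loci. The likeness of a pair of brain curves was taken as the median over the 26 bins of the absolute log2 difference, each curve being divided by its own mean. The 2 alpha viewpoints differed by 0.54 and the 6 pairs of an alpha and a beta viewpoint by 0.30 to 0.53 with a median of 0.44. The 3 pairs of beta viewpoints differed by 0.28 to 0.46. The alpha pair thus differed by more than any pair across loci, and the closest pair across loci was HS-26 and the Hbb-b1 promoter. These pairs share libraries and are not independent.

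The balance of the sides differed in direction between the loci, for the partners chosen here. A viewpoint's partner side is the side that holds a chosen element of its locus. At alpha this is the only other viewpoint, HS-26 for the Hba-a1 promoter and the Hba-a1 promoter for HS-26. At beta it is HS-2 for the Hbb-b1 promoter, and the Hbb-b1 promoter for HS-2 and for 3' HS-1. The Hbb-b1 promoter lies between HS-2 and 3' HS-1, and HS-2 lies between the Hbb-b1 promoter and HS-62, so these partners were a choice. The partner side held 60.5% of the signal for the Hba-a1 promoter and 53.2% for HS-26, against 47.2% from the Hbb-b1 promoter, 43.8% from HS-2 and 42.3% from 3' HS-1. Both alpha viewpoints were above an even share and all 3 beta viewpoints below it, without overlap. With 3' HS-1 as its partner instead, the Hbb-b1 promoter would have 52.8% on the partner side, above an even share. With HS-62 as its partner, HS-2 would have 56.2% there, also above an even share. The log2 ratio of the partner side over the other was 0.61 and 0.18 at alpha, with a mean of 0.40, and -0.16, -0.36 and -0.45 at beta, with a mean of -0.32. The loci differed by 0.72, which is less than the 1.37 by which this ratio differed between the template pair in liver. Without its direction the imbalance was alike, with the alpha mean 0.08 above the beta mean.

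By distance, the alpha partner side was higher in 7 of 8 bands and the beta partner side lower in 11 of 12. From the Hba-a1 promoter the log2 ratio was 0.55, 0.22, 0.93 and 0.81 from the nearest band to the farthest. The excess was thus larger in the bands beyond HS-26 than in the band that holds it. From HS-26 it was 0.01, 0.33, 0.34 and -0.02, so its excess lay between 20 and 80 kb. From the Hbb-b1 promoter it was -0.09, -0.14, -0.17 and -0.29, and each would change sign with 3' HS-1 as its partner. HS-2 and 3' HS-1 were most uneven near the viewpoint, with -0.74, -0.31, -0.20 and 0.01 from HS-2 and -0.83, -0.40, -0.08 and -0.47 from 3' HS-1. Each ratio of HS-2 would change sign with HS-62 as its partner. Of the 26 bins the partner side was higher in 23 for the Hba-a1 promoter and 18 for HS-26, against 9 from the Hbb-b1 promoter, 11 from HS-2 and 9 from 3' HS-1. The Hbb-b1 promoter had the least firm direction, with 7 of 9 other settings keeping it and a ratio of 0.48 at the 2 kb window and 0.03 in the deposited higher value. The other 4 viewpoints kept theirs in 9 of 9, HS-26 with ratios as low as 0.01.

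**Figure D2:**
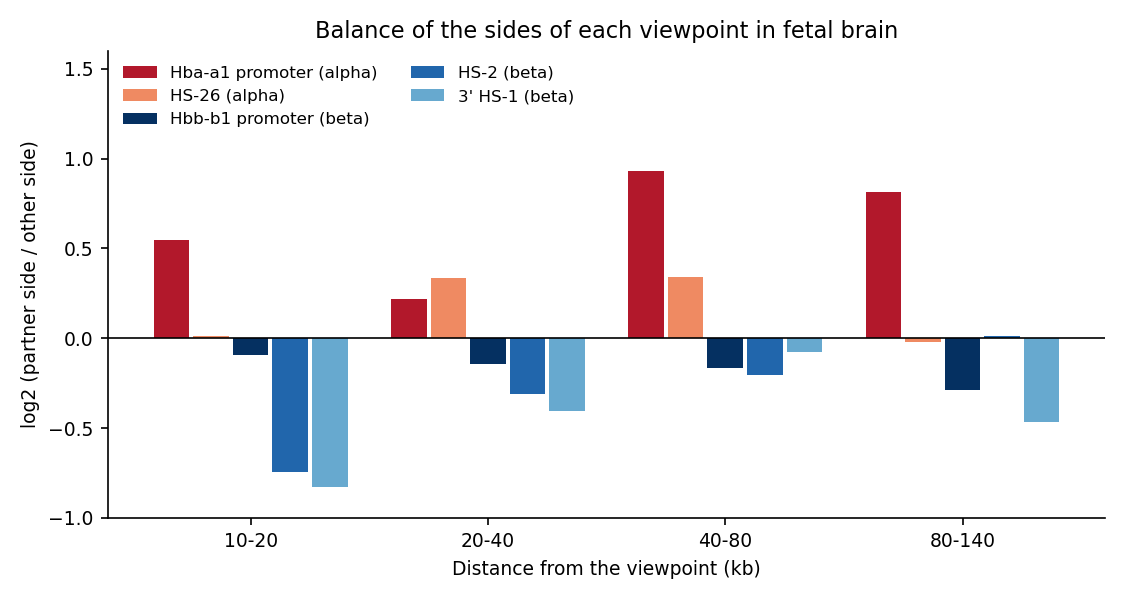
Log2 ratio of mean signal on the partner side over the other side in fetal brain (vertical axis) in 4 distance bands (horizontal axis, kb from the viewpoint), 1 bar per viewpoint and band. Bars of the 2 alpha viewpoints point up in 7 of 8 bands and bars of the 3 beta viewpoints point down in 11 of 12. The partner of the Hbb-b1 promoter is HS-2, and with 3' HS-1 as partner its bars would point up. The partner of HS-2 is the Hbb-b1 promoter, and with HS-62 as partner each bar of HS-2 would change direction.

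Residual structure was measured as observed over expected signal (O/E), where the expectation is a decay that can only fall with distance, fitted to both sides of the same library. Both had a pseudocount added, set to 10% of the mean signal of that library past 10 kb. Such a decay takes part of a broad peak into the expectation, so O/E understates broad peaks, and it is fitted over both sides, so an uneven library has O/E above 1 along its richer side. The SD of log2 O/E over 260 positions was 0.78 for the Hba-a1 promoter and 0.61 for HS-26, against 0.91 for the Hbb-b1 promoter, 0.93 for HS-2 and 0.85 for 3' HS-1. The locus means differed by -0.20, which is less than the 0.24 of the template pair, and by 0.07 when positions empty in all brain libraries of a locus were left out. The lower value at alpha thus went with empty positions, which had a signal under 1e-09.

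Empty positions set the beta profiles apart from the alpha profiles. They made up 0.531% and 0.613% of positions beyond 10 kb at alpha and 6.37%, 6.90% and 6.65% at beta. The same 26 positions were empty in all 3 beta brain libraries, with none empty in only 1 or 2 of them. The longest runs were 6 steps at 111.070 to 111.075 Mb, 5 steps at 111.111 to 111.115 Mb and 3 steps each at 110.967 to 110.969 and 111.178 to 111.180 Mb. At alpha the same 2 positions, 32.198 and 32.200 Mb, were empty in both brain libraries, and they lie on the higher-coordinate side of the Hba-a1 promoter. In liver 17, 22 and 15 of the 26 beta positions were empty, in the order of the viewpoints above. Why these positions are empty was not tested.

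Positions raised at least 1.5-fold over expectation were few at both loci. They numbered 22 of 260 (8.46%) for the Hba-a1 promoter and 14 (5.38%) for HS-26. From the Hbb-b1 promoter there were 30 (11.5%), from HS-2 22 (8.46%) and from 3' HS-1 12 (4.62%). Shares at the loci overlapped, and the beta viewpoints held both the highest and the lowest. The same count in liver was 39 (15.0%) for the Hba-a1 promoter and 16 (6.15%) for HS-26. It was 46 (17.7%) from the Hbb-b1 promoter, 50 (19.2%) from HS-2 and 36 (13.8%) from 3' HS-1 in liver, so each viewpoint had a smaller share in brain.

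Named elements of a locus stood at 0.920 to 1.44 times expectation as seen from its other viewpoints, without a clear order of the loci. A target's value is O/E over 5 kb to either side, and its percentile ranks it within its own library against positions between 0.5 and 2 times as far out. From the Hba-a1 promoter HS-26 (32144250 to 32154250) stood at 1.31, at percentile 82.4 of 108 positions, with a mean signal of 0.0844 between deposited lower and higher values of 0.0230 and 0.160. Seen the other way, the promoter (32179894 to 32189894) also stood at 1.31, at percentile 99.1 of 107 positions, with a signal of 0.0422 between 0.0133 and 0.0783. The 2 directions thus gave the same O/E, with a log2 difference of -0.00. The template pair differed by 0.35 at this contact, close to the log2 O/E of 0.39 itself, and at the 2 kb window the Hba-a1 promoter had a log2 O/E of -0.02 at HS-26.

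At beta, HS-2 (111001000 to 111011000) stood at 1.08 from the Hbb-b1 promoter, and the promoter (110972000 to 110982000) stood at 0.997 from HS-2, at percentiles 73.9 and 53.4. Seen from the Hbb-b1 promoter, log2 O/E at HS-2 was 0.11 at the 5 kb window, 0.54 at the 2 kb window and 0.45 with a power-law decay. From 3' HS-1 (110937500 to 110947500) the Hbb-b1 promoter had 1.22 and HS-2 had 1.20, at percentiles 88.5 and 89.5, which are above that of HS-26 from the Hba-a1 promoter. At the 2 kb window HS-2 had a log2 O/E of 0.66 from 3' HS-1. In the opposite direction 3' HS-1 had 1.03 from each, so views of these 2 pairs differed by -0.24 and -0.22 (log2). Over 6 beta views the range was 0.997 to 1.22, below both alpha values, but the 0.35 of the template pair is wider than the gap between the loci. This order held in 7 of 9 other settings. It was lost with the decay fitted on each side alone, where log2 O/E was 0.25 and 0.14 at alpha and reached 0.28 at beta, and at the 2 kb window, where it was -0.02 and 0.27 at alpha and reached 0.66 at beta. HS-62 (111053000 to 111063000) had no brain library with this target as viewpoint. It stood at 1.23 from the Hbb-b1 promoter, 1.44 from HS-2, at percentile 96.2 of 158 positions, and 0.920 from 3' HS-1.

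Other sites of the alpha-globin enhancer region, HS-31, HS-21, HS-12 and HS-8, were placed by the distances in their names relative to HS-26. Across both alpha libraries 5 of 6 values were above 1, with a range of 0.965 to 1.27. HS-31 had the highest at 1.27 from the Hba-a1 promoter, but its window overlaps that of HS-26. From the same viewpoint HS-21 had 1.10, HS-12 1.02 and HS-8 1.15. From HS-26, HS-12 had 1.03 and HS-8 0.965.

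**Figure D3:**
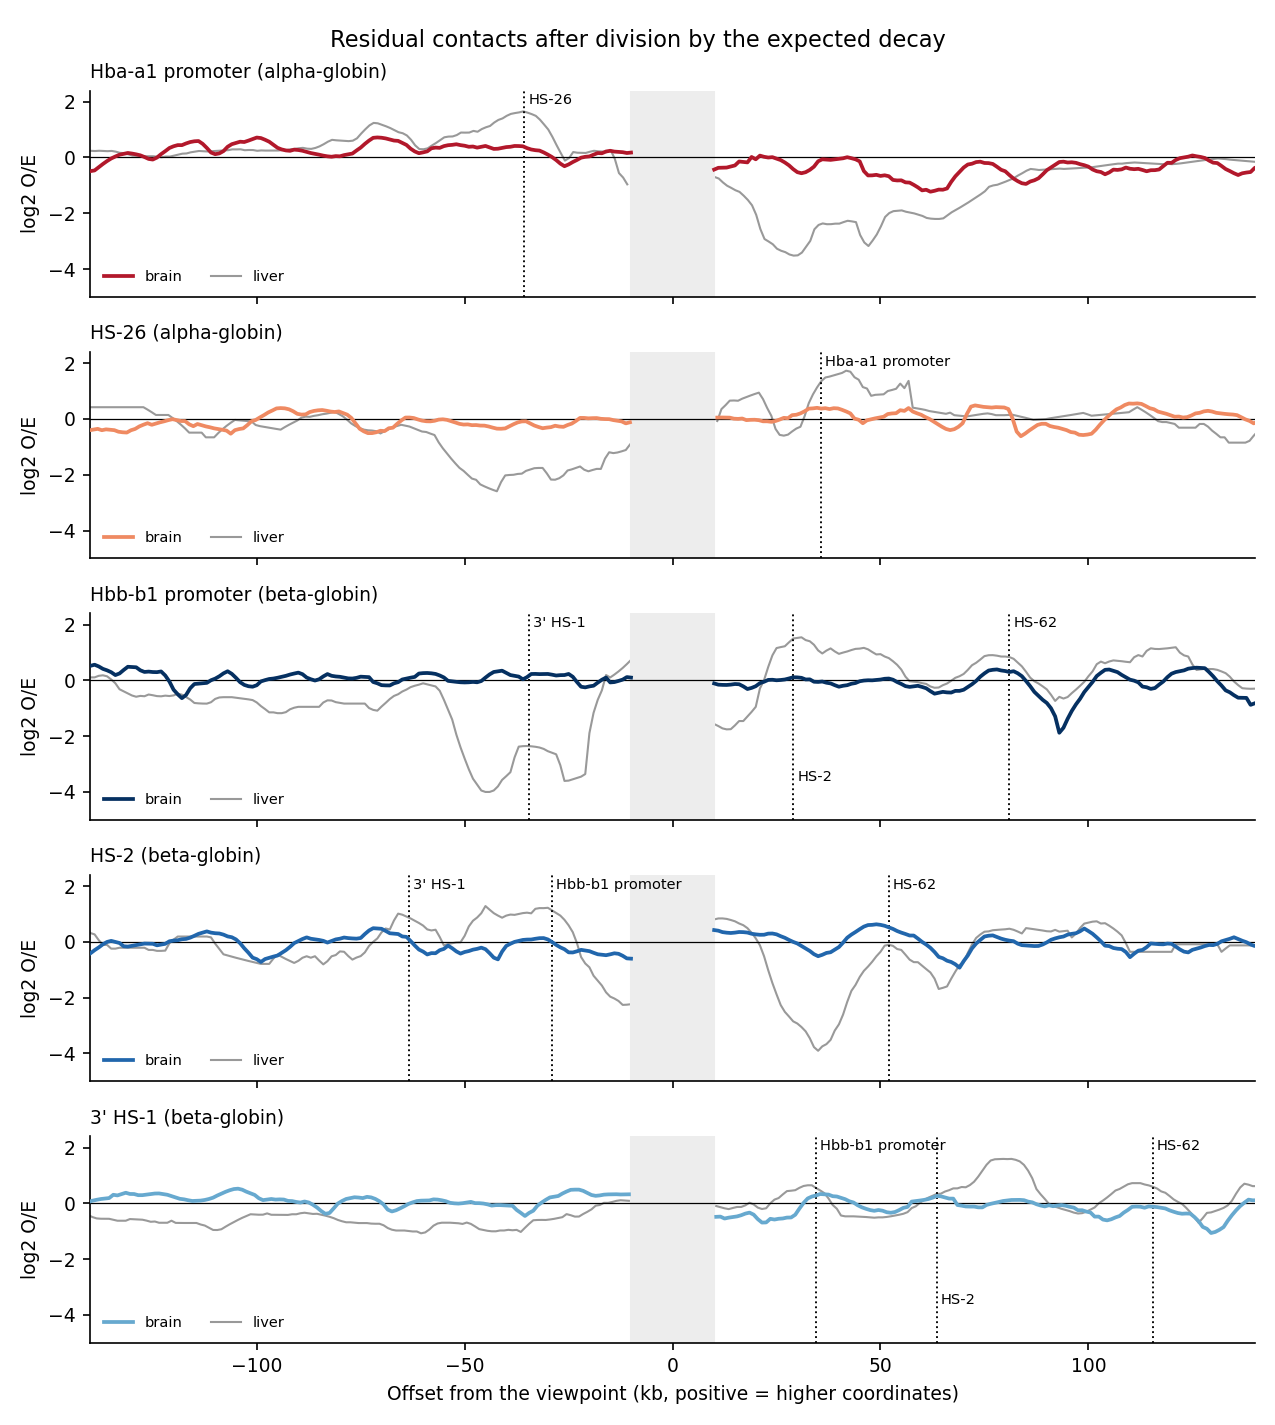
Log2 O/E averaged over 5 kb to either side (vertical axis) against offset from the viewpoint (horizontal axis, kb), in fetal brain (thick coloured lines) and fetal liver (thin grey lines), 1 library per line, with dotted lines at other viewpoints of the locus and the 10 kb left out around the viewpoint in grey. Brain values stay between -1.88 and 0.72, whereas liver values run between -4.00 and 1.73.

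Residual maxima were named as up to 5 local peaks of O/E above 1 per library, at least 20 kb apart, at signals in the library's top 25%. This gave 5 for the Hba-a1 promoter and 4 for HS-26, against 3 from the Hbb-b1 promoter, 4 from HS-2 and 3 from 3' HS-1. From the Hba-a1 promoter the highest were at 32.114 and 32.085 Mb, both with O/E 1.64, farther out than HS-26 on the same side. The next was at 32.147 Mb with 1.33, 2.36 kb from HS-26, and 32.170 Mb (1.18) and 32.206 Mb (1.05) followed. From HS-26 the highest was at 32.184 Mb with 1.32, 0.894 kb from the Hba-a1 promoter. It was followed by 32.206 Mb (1.31), 32.161 Mb (1.04) and 32.127 Mb (1.03). The position at 32.206 Mb, beyond the Hba-a1 promoter, was seen from both alpha viewpoints at places 0.106 kb apart, which is the offset between the grids of the 2 libraries.

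Beta maxima were of like height. From the Hbb-b1 promoter they were at 110.936 Mb (1.27), 110.966 Mb (1.09) and 111.006 Mb (1.08), the last of which is the position of HS-2. HS-2 had 111.055 Mb with 1.55, 3 kb from HS-62, then 111.016 Mb (1.34), at the edge of the zone left out, 111.083 Mb (1.17) and 110.975 Mb (1.10), 2 kb from the Hbb-b1 promoter. From 3' HS-1 they were at 110.919 Mb (1.41), 110.978 Mb (1.26), 1 kb from the Hbb-b1 promoter, and 110.869 Mb (1.18). The Hbb-b1 promoter region was thus a maximum from both HS-2 and 3' HS-1, at places 3 kb apart. Of the 19 brain maxima, 6 lay within 5 kb of another viewpoint of the locus, at least 1 in each library. That zone held 24.6% of the 268 positions that could have been named, those with O/E above 1 and a signal in the top 25%, and no excess is read from the count. Over other settings a library had such a maximum in 7 to 9 of 9. The maxima were chosen as high positions, and their 10 kb surroundings covered 14.3% to 26.5% of each profile. The highest maximum of a library stayed within 10 kb in 4 of 9 other settings for the Hba-a1 promoter and 4 for HS-26, against 5 for the Hbb-b1 promoter, 7 for HS-2 and 5 for 3' HS-1.

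Viewpoints of 1 locus saw similar residual profiles in brain. Across shared positions, Pearson's r of log2 O/E was 0.61 for the pair of alpha viewpoints (n = 307 positions) and 0.49 with shared empty positions left out (n = 305). At beta it was 0.76 between the Hbb-b1 promoter and HS-2, 0.79 between the Hbb-b1 promoter and 3' HS-1, and 0.76 between HS-2 and 3' HS-1. Without shared empty positions these fell to 0.51, 0.57 and 0.44, near the alpha value. Spearman's rho without them was 0.50 for the alpha pair and 0.54, 0.54 and 0.44 for the beta pairs. These are descriptions across positions, which are neighbours on a smoothed track and share fragments, enzyme and grid. In liver the same pairs gave r of -0.28 at alpha and 0.17, 0.51 and 0.23 at beta, each below its brain value. Spearman's rho in liver was -0.22 at alpha and 0.28, 0.67 and 0.25 at beta, so by rank the Hbb-b1 promoter and 3' HS-1 were less alike in brain, at 0.54, than in liver. From the same viewpoint, brain and liver had r of 0.41 for the Hba-a1 promoter, 0.21 for HS-26, 0.10 for the Hbb-b1 promoter, 0.13 for HS-2 and 0.02 for 3' HS-1. By Pearson's r without shared empty positions, each brain profile was thus more like those of the other viewpoints of its locus in brain than like that of its own viewpoint in liver. For the Hba-a1 promoter this was 0.49 against 0.41, and 0.50 against 0.49 by Spearman's rho. More liver than brain positions were empty at the Hba-a1 promoter, the Hbb-b1 promoter and HS-2, and fewer at 3' HS-1, as given below. The part of fill in the liver correlations was not tested.

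**Figure D4:**
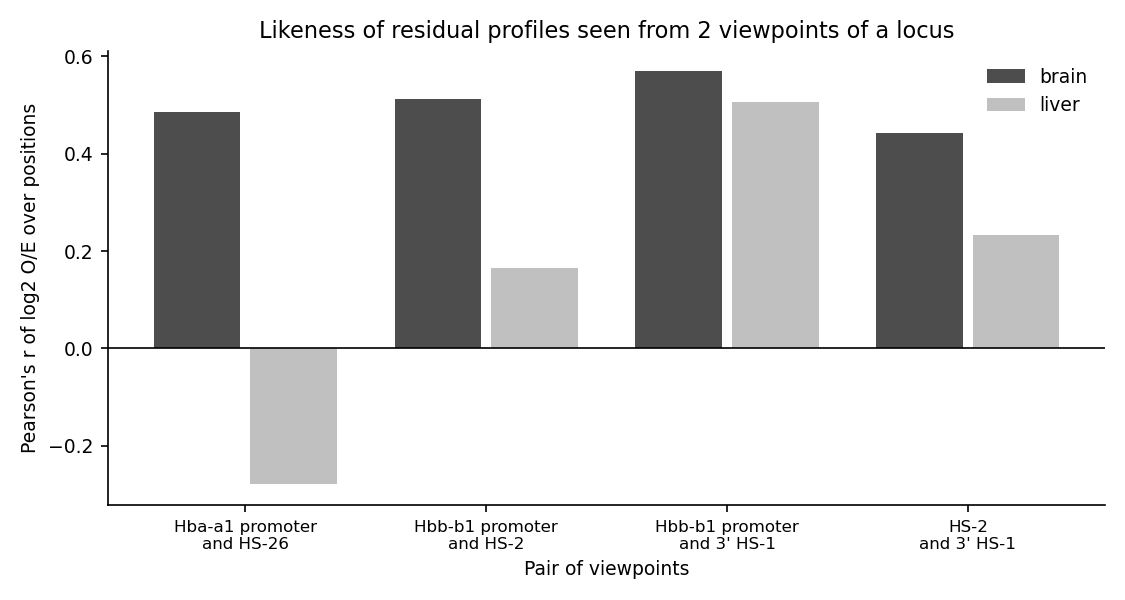
Pearson's r of log2 O/E over positions (vertical axis, a description across positions) for each pair of viewpoints of a locus (horizontal axis), in fetal brain (dark bars) and fetal liver (light bars), with shared empty positions left out. The 4 brain bars lie between 0.44 and 0.57, each above its liver bar, an order that Spearman's rho turned for the Hbb-b1 promoter and 3' HS-1.

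Against liver, where the globin genes are expressed, the brain profiles scattered less about their decay and were closer to an even balance of the sides, at HS-2 only slightly. Brain slopes spanned 0.30 and liver slopes 2.72, with -2.91 for the Hba-a1 promoter, -1.91 for HS-26, -2.23 for the Hbb-b1 promoter, -3.13 for HS-2 and -0.41 for 3' HS-1 in liver. The brain slope was thus shallower at 4 viewpoints and steeper at 3' HS-1. For the Hba-a1 promoter the difference was 1.93 with the full liver library and 0.39 with the 1/16 template library, whose slope was -1.37. The template pair differed by 1.54. The difference at HS-2 was larger than that, at 1.94. Those at HS-26 (0.64), the Hbb-b1 promoter (1.01) and 3' HS-1 (-0.62) were smaller in size. Bins scattered about the slope less in brain at all 5 viewpoints, with SDs of 0.31 to 0.54 (log2) against 0.58 to 1.52 in liver. At the Hba-a1 promoter the SD was 0.49 in brain, against 1.52 in liver with full and 0.69 with 1/16 template. The template pair thus differed by more than brain and liver did at HS-26 (0.41 against 0.90) and 3' HS-1 (0.31 against 0.58). The median distance between brain and liver curves of a viewpoint was 0.71 to 2.24, above every distance within brain, and the template pair differed by 1.79.

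The partner side held less of the signal in brain than in liver at all 5 viewpoints. It held 60.5% in brain against 89.8% in liver from the Hba-a1 promoter, and 53.2% against 81.4% from HS-26. From the Hbb-b1 promoter it held 47.2% in brain against 79.1% in liver, from HS-2 43.8% against 58.9%, and from 3' HS-1 42.3% against 66.1%. Without its direction, the log2 imbalance differed (brain minus liver) by -2.52 at the Hba-a1 promoter, -1.94 at HS-26 and -1.76 at the Hbb-b1 promoter. It differed by only -0.16 at HS-2 and -0.52 at 3' HS-1, less than the 1.37 of the template pair. At the 2 kb window the HS-2 difference was 0.01. All 5 liver libraries were above an even share, so the direction that separates the loci in brain was not seen in liver. The log2 ratio of the sides was lower in brain by more than the 1.37 of the template pair at the Hba-a1 promoter (-2.52), HS-26 (-1.94), the Hbb-b1 promoter (-2.08) and 3' HS-1 (-1.41), and by less at HS-2 (-0.88). With the 1/16 template library, in which the partner side held 77.2%, the first of these was -1.15. By distance, the full-template liver ratios at 10 to 20 kb did split the loci in the direction seen in brain. They were 1.39 at the Hba-a1 promoter and 1.91 at HS-26. At beta they were -2.03 at the Hbb-b1 promoter, -2.89 at HS-2 and -0.23 at 3' HS-1. From 20 to 80 kb all were above 0, and at 80 to 140 kb those of HS-26 (-0.14) and HS-2 (-1.72) were below 0.

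Residual peaks were lower in brain at every viewpoint. The highest O/E within 140 kb, averaged over 5 kb to either side and taken at any signal level, was 1.64 for the Hba-a1 promoter and 1.47 for HS-26 in brain, against 3.14 and 3.32 in liver. At beta it was 1.48 for the Hbb-b1 promoter, 1.55 for HS-2 and 1.44 for 3' HS-1 in brain, against 2.92, 2.44 and 3.02 in liver. Over all 260 positions the SD of log2 O/E was lower in brain, with a brain minus liver difference of -0.56 at the Hba-a1 promoter, -0.54 at HS-26, -0.59 at the Hbb-b1 promoter, -0.40 at HS-2 and -0.04 at 3' HS-1. This ordering did not hold at the 2 kb window, where brain minus liver was 0.14, -0.05, 0.10, 0.23 and 0.54 in the same order. Brain and liver differed in fill, with 0.531% of positions empty in brain against 21.2% in liver for the Hba-a1 promoter, 6.37% against 24.1% for the Hbb-b1 promoter and 6.90% against 51.2% for HS-2. For 3' HS-1 it was 6.65% in brain against 3.99% in liver. The part of fill in these differences was not tested. For HS-26, empty positions made up 0.613% in both tissues, but this does not show equal fill. The commonest value filled 6.13% of HS-26 positions in brain against 38.7% in liver. Of the 19 brain maxima, 7 had a maximum of the same viewpoint in liver within 10 kb. Positions within 10 kb of a liver maximum made up 11.04% to 25.8% of a profile. That share counts all positions, not only those that could have been named as maxima, so no excess is read from the count. Among these 7 were those near HS-26, the Hba-a1 promoter and HS-2.

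**Figure D5:**
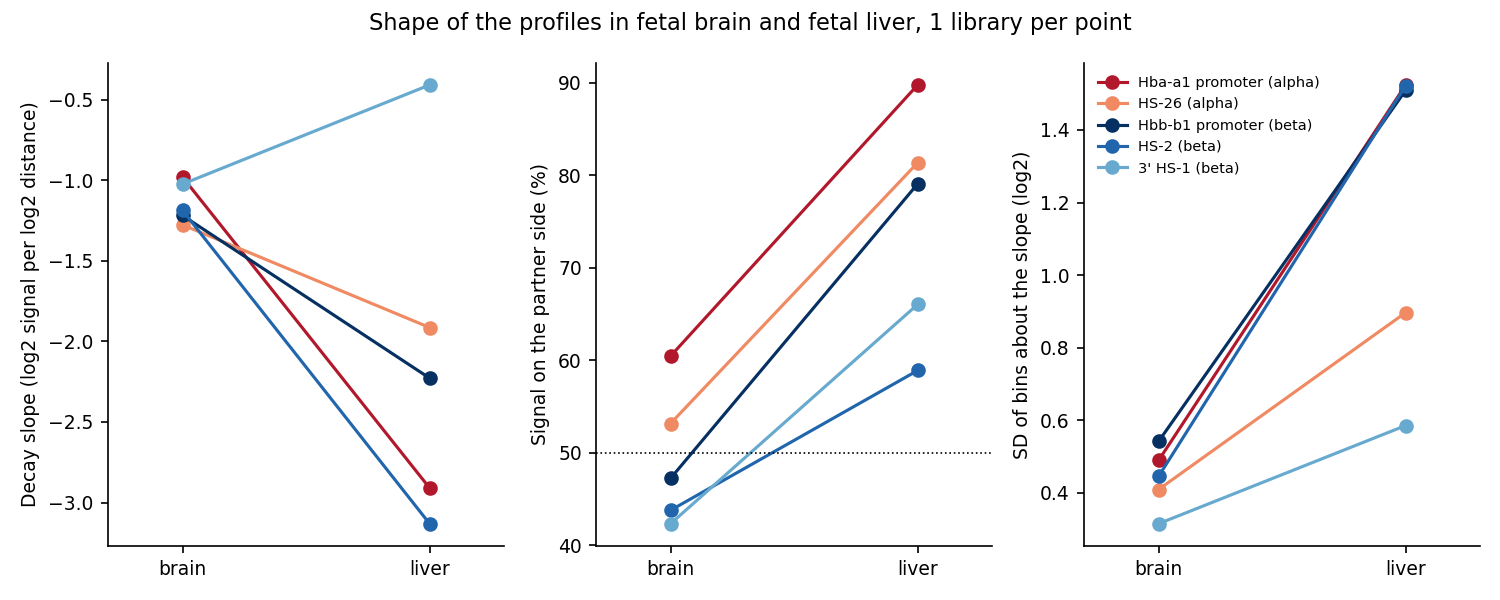
Decay slope (left, log2 signal per log2 distance), percent of signal on the partner side (middle, dotted line at 50%) and SD of distance bins about the slope (right, log2) in fetal brain and fetal liver, 1 line per viewpoint and 1 library per point. Partner shares are 42.3% to 60.5% in brain and 58.9% to 89.8% in liver, and each viewpoint's brain share is below its liver share.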

How the data were processed

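Contacts in 5 fetal brain and 6 fetal liver libraries, 1 per group, were analysed, and an HS-62 liver library was used only for its position. Per the labels' protocols, fixed chromatin was cut, ligated, cut and ligated again, and partners were amplified by inverse PCR. The authors deposited signal per 1000 bp, smoothed over 48 running windows of 2 to 49 kb, with middle, higher and lower values. Per the submitters' processing notes the build is mm9. Aligner, filters, read numbers and the quantile levels of the outer values were not given in the sources used here. Depth is therefore unknown, and no counting interval could be given.

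The middle value of the 5 kb window was used. For slopes, distance bins without signal were set to 50% of the lowest bin above 0 in that library. Expected decay was an isotonic fit (scikit-learn 1.9.0), and other measures used Python 3.11.15, numpy 2.4.6, pandas 2.3.3, scipy 1.17.1 and matplotlib 3.10.9. Scripts were tested on simulated data. Members, measures and lists were chosen with earlier results of these data known. Named positions were viewpoints as targets, in each library up to 5 O/E maxima, and 4 alpha-globin HS sites. With 1 library per group no test was run. Alternatives were other windows, zones, reaches, columns, pseudocounts and decays, each library left out, and, added after the data were seen, shared empty positions left out and the signed side ratio.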

Additional observations from a re-analysis of the deposited data

Results flagged for a closer look

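The log2 ratio of the partner side over the other side in brain differed by 0.72 between the alpha and the beta locus. It stood out because the partner side held more signal at both alpha viewpoints and less at all 3 beta viewpoints. The difference was not tested, since each viewpoint was 1 library, and the template pair in liver differed by 1.37 in the same measure. It ranged from 0.41 to 1.08 over 14 other settings, all above 0, libraries left out included. None of these settings changed the choice of partners, on which the split of the loci depends. With 3' HS-1 as partner the ratio of the Hbb-b1 promoter would change sign. The ratio of HS-2 would also change sign with HS-62 as its partner.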

How the results depend on the processing

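Differences below are alpha minus beta unless stated. The slope difference took both signs, from -0.13 to 0.28 over 14 settings. The difference in the distance holding 50% of the signal was -0.855 kb with 20 kb left out around the viewpoint, 0.0934 kb with the 20 kb window, 9.04 kb in the lower and 0.139 kb in the higher column, and -0.114 to 6.21 kb with each library left out. The difference in SD of log2 O/E was 0.10 and 0.11 with the 10 and 20 kb windows, 0.061 without a pseudocount, -0.64 with a pseudocount of 1% and 0.066 without shared empty positions. At the 2 kb window the SD of log2 O/E was higher in brain than in liver at every viewpoint but HS-26. Brain minus liver was 0.14 at the Hba-a1 promoter, 0.10 at the Hbb-b1 promoter, 0.23 at HS-2, 0.54 at 3' HS-1 and -0.05 at HS-26. The log2 O/E of HS-26 seen from the Hba-a1 promoter was -0.025 at that window. The causes were not tested. No paired analysis was possible because each group was 1 library and the labels give no replicate numbers. Unknown depth, pooled embryos and 1 technical pair from liver limit what these values can show.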
